A study of Mus musculus with 22 samples.

Results

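A set of 10 genes that mark the alveolar and distal airway epithelium was followed in cultured lung epithelial cells exposed to carbon nanotubes. They are the surfactant protein genes Sftpa1, Sftpb, Sftpc and Sftpd, the lipid transporter gene Abca3, the transcription factor gene Nkx2-1, the type I cell genes Pdpn, Aqp5 and Ager, and the club cell gene Scgb1a1. A probe was counted as a member when its transcript accession carried one of these 10 symbols, and 14 of the 55681 probes on the array did so, which covered 10 of 10 genes among 20018 named genes. The cells were FE1, an epithelial line from the lung of the MutaMouse strain, grown with epidermal growth factor in medium with little serum. Cells received Mitsui7, a long and rigid multiwalled carbon nanotube, for 24 h at 12.5 µg/ml (low dose, n = 6), 25 µg/ml (medium dose, n = 5) or 100 µg/ml (high dose, n = 6), and control cells received 0 µg/ml (n = 5). Each of the 22 two-colour arrays held FE1 RNA labelled with Cy5 beside a reference RNA pooled from 11 mouse cell lines and labelled with Cy3. The dyes were never swapped. Exposures were made in separate wells of the 1 line. The study's methods describe fewer separate exposure experiments than there are arrays in a group, so arrays of a group may share an experiment. The labels do not tie an array to an exposure day, so p-values measure the spread between these samples, which may be technical.

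Alveolar type I cells are thin and cover most of the gas exchange surface. Type II cells make surfactant, a film of lipid and protein that keeps alveoli from collapsing, store it in lamellar bodies and renew the type I layer after injury. NKX2-1 is the transcription factor that drives surfactant protein genes in the distal lung. Club cells line the small airways and secrete the protein encoded by Scgb1a1.

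Detection on an array required a Cy5 signal above the trimmed mean plus 3 trimmed SDs of 308 negative control spots. The scanner software also marked spots as well above background, which is a different measure. For the members it passed no more arrays of a group in Cy5 than the detection level. In Cy3 it passed 4 control arrays for Ager, against 3 by the detection level. Between 21604 and 38146 probes were detected per array, and precision is limited by how many arrays each group has. The arrays lay on 5 slides, and the 4 arrays of slide 3 had the most spots marked as outliers, 3.94% to 6.22%. Of the 17 dosed arrays 8 correlated better on average with another dose group than with their own and none did so with the controls, while 0 control arrays did so with any dose. The gap was above 0.01 for low dose array 1 and medium dose array 2, and leaving out both changed no call of the 10 genes or of the genes named from wider lists.

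General epithelial marker genes were detected in controls at a rate near that of all named genes. In controls 9 of 16 general epithelial genes were detected on at least 4 of 5 arrays, beside 58.8% of all named genes. Among them were Tjp1 and Cgn, which encode junction proteins, and the keratin genes Krt8, Krt18 and Krt19. The log2 ratios of these keratin genes to the reference pool were low in controls, at -4.35, -5.62 and -4.91. The other detected genes of the list stood at -2.11 (Cldn7), -0.15 (Esrp1), 0.28 (Cldn4), 0.53 (Tjp1), 1.44 (Cgn) and 2.04 (Esrp2). Epcam was detected on 1 control array and Cdh1, which encodes E-cadherin, on 0. All 15 genes of a mesenchymal list were detected. In controls 5 of 8 immune genes, led in signal by Cd14 and Cd3e, and 2 of 7 endothelial genes, Kdr and Pecam1, passed the same level, while the endothelial genes Cdh5 and Tek were detected on 0 control arrays.

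Abca3, Pdpn and Scgb1a1 were the 3 members detected on at least 4 of 5 control arrays. At the high dose 6 members were detected on at least 4 of 6 arrays, with Aqp5, Sftpc and Sftpd added. Over all genes, 58.8% were detected in controls and 69.8% at the high dose. Control arrays 4 and 5 had detection levels of 119 and 86.4 signal units, against 74.9 to 76.9 on the other 3 control arrays, and every control array on which Aqp5 or Scgb1a1 was not detected was 1 of these 2. Their part in the rise of the count was not tested. With the scanner mark in place of the detection level, 2 members passed on at least 4 control arrays and 4 passed at the high dose. Because the arrays read RNA of whole wells, fewer cells that express a gene and less RNA per cell cannot be told apart.

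**Figure D1:**
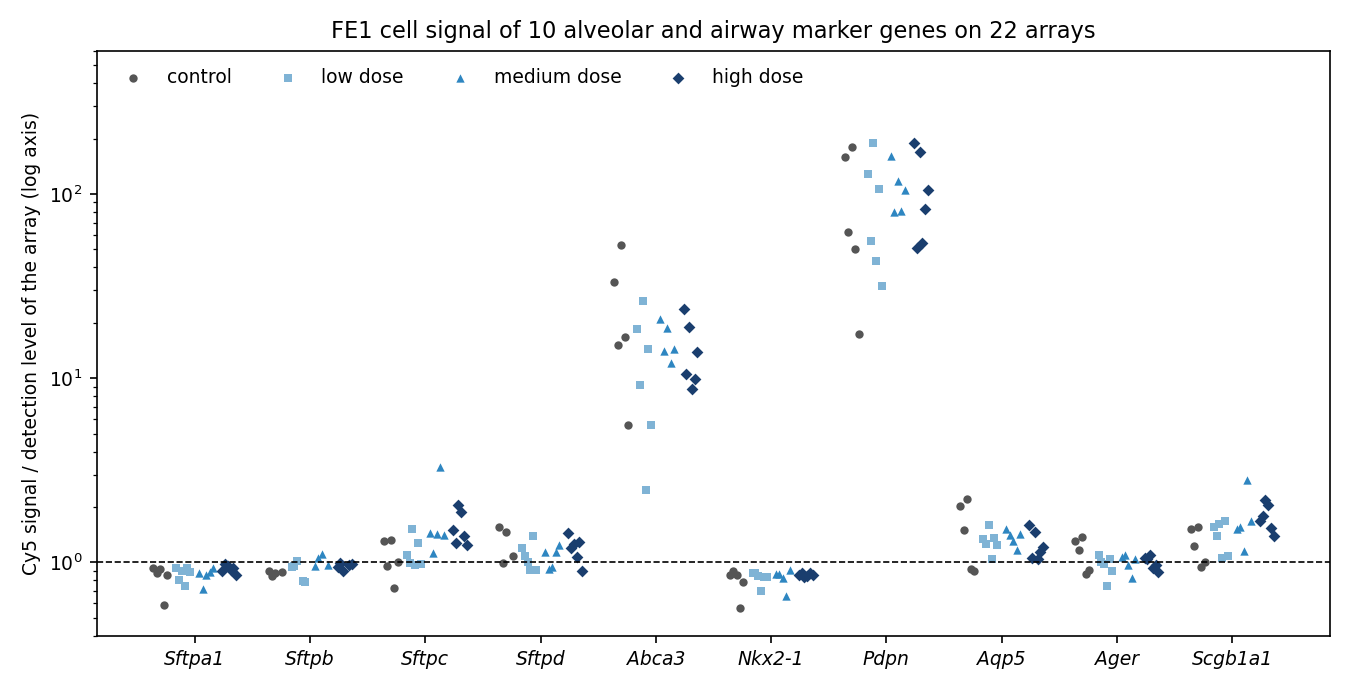
Cy5 signal of FE1 RNA divided by the detection level of the same array, on a log axis, for the brightest probe of each of the 10 genes, with 1 point per array in 4 groups and a dashed line at the detection level. Abca3 and Pdpn lie above the line on all 22 arrays, Sftpa1 and Nkx2-1 lie below it on all 22, and signals of different probes are not comparable in height.

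Sftpa1 and Sftpb encode surfactant proteins A and B. SP-A is a collectin that binds microbes, and SP-B is needed to spread surfactant lipid at the air surface. Sftpa1 was detected on 0 of 22 arrays, with a highest Cy5 signal at 0.985 of the detection level. Sftpb, read by 2 probes, was detected on 3 and 2 arrays and was well above background on none. Its brightest probe had no value on 4 arrays, where its spot was marked as an outlier. Neither gene gives a fold change, since both groups of every comparison lay at background.

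The upstream sequences of these undetected genes are shown because they carry the recognition core of NKX2-1. RefSeq promoter sequence of build GRCm38.p6 was available here for 7 of the 10 members, and the 250 bases before the annotated start were searched on both strands for CTCAAG, the NKX2-1 core, and for TGTTTAC and TGTTTGC, cores bound by forkhead factors such as the FOXA proteins. No match overlapped another. Capitals mark the matches on the coding strand, where the other strand of CTCAAG reads CTTGAG and that of TGTTTGC reads GCAAACA.
Sftpb, chr6:72304360-72304609, plus strand: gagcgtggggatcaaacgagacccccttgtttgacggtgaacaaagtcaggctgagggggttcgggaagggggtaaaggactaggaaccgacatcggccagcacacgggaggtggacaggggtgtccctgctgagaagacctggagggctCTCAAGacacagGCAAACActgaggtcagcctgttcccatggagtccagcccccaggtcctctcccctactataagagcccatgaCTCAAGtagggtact
Sftpa1, chr14:41131538-41131787, plus strand: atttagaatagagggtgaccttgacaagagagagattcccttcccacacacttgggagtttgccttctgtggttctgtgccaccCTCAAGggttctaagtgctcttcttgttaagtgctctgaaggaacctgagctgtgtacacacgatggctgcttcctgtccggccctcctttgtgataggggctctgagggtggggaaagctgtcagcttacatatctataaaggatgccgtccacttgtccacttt
In Sftpb, CTCAAG began 100 and 15 bases before the start and the match to TGTTTGC 88 bases before it. In Sftpa1, CTCAAG began 166 bases before the start. Of 32851 promoters of the same length, 13.3% held CTCAAG and 4.3% held TGTTTGC. Pdpn held 1 match to TGTTTAC, present in 3.17% of promoters, and the windows of Abca3, Nkx2-1, Aqp5 and Ager held none of the 3 motifs. A match is a run of letters and was not tested as a binding site in these cells.

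Nkx2-1 itself was detected on 0 of 22 arrays in either channel. The array carries 10 spots of its probe, and 1 of 206 usable Cy5 spots passed the detection level. The median signal was 0.851 of that level, so the gene could not be measured at any dose. Its absence from both channels leaves no array in this set on which the probe is shown to work. Of 23 other lung epithelial transcription factor genes, 17 were detected in controls, beside 58.8% of all named genes.

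Sftpc encodes surfactant protein C, a small lipid-bound peptide that among lung cells is made by type II cells. Its probe was detected on 3 of 5 control arrays, 3 of 6 low dose, 5 of 5 medium dose and 6 of 6 high dose arrays, and was well above background on 2, 2, 4 and 6. Log2 ratios of FE1 to reference were 0.48, 0.15, 0.68, 0.35 and 0.47 in the controls. They ran from 0.20 through a median of 0.48 to 1.07 at the low dose. The medium dose arrays read 0.83, 0.49, 0.95, 2.89 and 0.72, and the high dose ran from 0.53 through 0.80 to 1.82, so 4 of 5 medium and 5 of 6 high dose arrays lay above every control. The value of 2.89 came from medium dose array 4 on slide 3, whose Cy5 signal was 344.5 units against 87 to 115 on the other medium dose arrays.

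Sftpd encodes SP-D, a second collectin of surfactant. Its brighter probe was detected on 3, 4, 3 and 5 arrays from control to high dose, but was well above background on only 6 of 22. The other probe was detected on 1 array. In the reference channel the brighter probe was detected on 19 arrays, so it did yield signal in another RNA. The change against control lay between -0.06 and 0.00 at the 3 doses, and the interval at the high dose ran from -0.25 to 0.25, with 1 control array left out because its spot was marked.

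Abca3 encodes the transporter that loads phospholipid into lamellar bodies. It was well above background on all 22 arrays in both channels. The control ratios were -1.08, -1.01, -0.90, -0.98 and -1.81, and control array 5 was the low one. Low dose ratios ran from -3.19 through a median of -1.55 to -1.15, medium dose arrays read -1.33, -1.34, -1.54, -1.62 and -1.80, and high dose ratios ran from -2.31 through -1.83 to -1.38. Control array 5 sat among the dosed arrays, and all the other controls lay above every dosed array.

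Of the type I genes, Pdpn encodes podoplanin, a mucin-like surface protein of type I and lymphatic endothelial cells. Both of its probes were well above background on all 22 arrays. The brighter read -0.47, -0.38, -0.35, -0.45 and -0.76 in controls, and -0.01, -0.33, 0.29, 0.04 and 0.00 at the medium dose. Low dose ratios ran from -1.03 through -0.26 to 0.13 and high dose ratios from -0.49 through -0.26 to 0.32. All 5 medium dose arrays lay above every control, while 5 of 6 low dose and 4 of 6 high dose arrays did so and the rest overlapped or lay below.

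Aqp5 encodes a water channel of type I and gland cells. The brighter of its 2 probes was detected on 3 of 5 control arrays and on all 17 dosed arrays, and was well above background on 15 of 22. It was detected in the reference on all 22. Control ratios were -3.07, -2.35, -3.15, -2.58 and -1.97. The low dose ran from -3.25 through -2.64 to -1.79, the medium dose read -3.01, -2.81, -3.08, -2.26 and -2.42, and the high dose ran from -3.42 through -2.98 to -2.62, so every dose group overlapped the controls.

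Ager encodes RAGE, a receptor for advanced glycation products and S100 proteins that in lung is abundant on type I cells. It was detected on 3 arrays of each group, and was well above background on 2 control arrays and on none of the 17 dosed arrays. Control ratios were -0.08, 0.29, 0.16, 0.44 and 0.10. Low dose ratios ran from -0.40 through -0.19 to 0.03, medium dose arrays read -0.42, -0.04, -0.22, -0.01 and -0.19, and high dose ratios ran from -0.47 through -0.29 to -0.08. Apart from control array 1 at -0.08, the controls lay above every dosed array.

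Scgb1a1 encodes the club cell secretory protein. It was detected on 4 of 5 control arrays and on all 17 dosed arrays. From control to high dose it was well above background on 3, 4, 5 and 6 arrays. The median control signal was 1.23 times the detection level. Of the 204 usable Cy5 spots of its probe, which is printed 10 times per array, 188 passed the detection level, with a median coefficient of variation of 10.5% among spots of an array. Control ratios were 0.60, 0.19, 0.44, 0.25 and 0.26, low dose ratios ran from 0.36 through 0.43 to 0.67, medium dose arrays read 0.56, 0.63, 0.38, 1.55 and 0.60, and high dose ratios ran from 0.52 through 0.79 to 1.15. The value of 1.55 again belonged to medium dose array 4, and the lowest high dose array lay below the highest control.

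**Figure D2:**
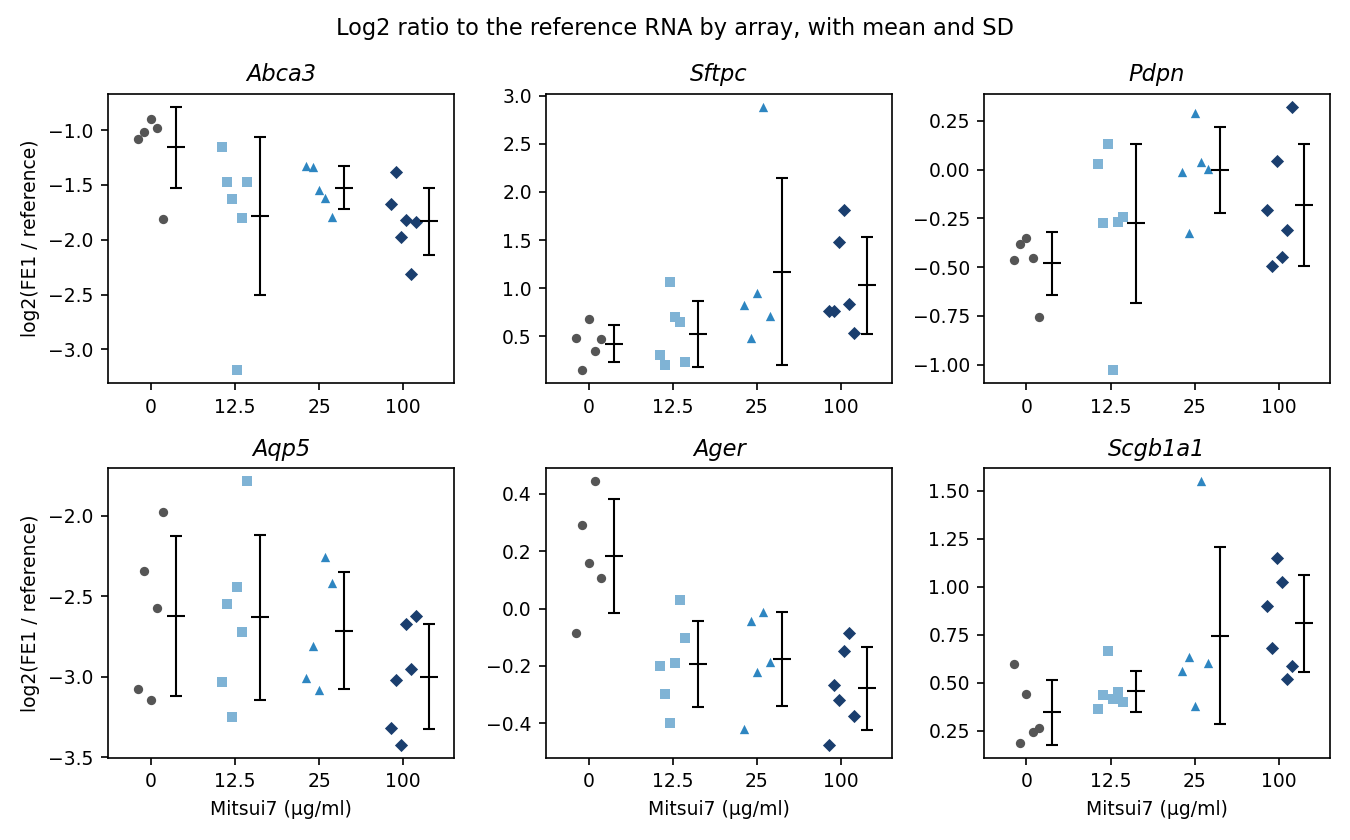
Log2 ratio of FE1 RNA to reference RNA against the Mitsui7 concentration for 6 genes, each panel with its own vertical scale, with 1 point per array and the mean with SD beside each group (n = 5, 6, 5 and 6). Medium dose array 4 stands apart in Sftpc at 2.89 and in Scgb1a1 at 1.55, and low dose array 4 stands apart in Abca3 at -3.19 and in Pdpn at -1.03.

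Against the reference pool, Abca3 and Aqp5 were low in control FE1 cells. The mean log2 ratio of Abca3 was -1.16 ± 0.37 (SD, n = 5), 2.23-fold under the pool, and 8.78% of 27482 probes detected in either channel had a lower ratio. Aqp5, whose FE1 signal was above background on only 3 of the 5 control arrays, stood at -2.62 ± 0.49 (SD, n = 5), with 1.73% of probes lower. Its second probe read -1.14 ± 0.48 (SD, n = 5). Scgb1a1, whose FE1 signal was well above background on 3 of the 5 control arrays, stood at 0.35 ± 0.17 (SD, n = 5). The 2 Pdpn probes disagreed in sign, at -0.48 ± 0.16 and 1.30 ± 0.71 (SD, n = 5 each), so no direction is given for it. No background was subtracted, which pulls ratios of dim probes towards 0, and with no swapped arrays any dye effect on a probe remains in its ratio.

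The design asks which of these genes responded to Mitsui7 and whether the response differed by dose. Calls needed a limma adjusted p of 0.05 or less, a difference of 1.5-fold or more, and detection of the gene's brightest probe on 4 or more arrays of either group. No member met all 3 conditions at any dose. Of the named genes detected, 5.31% were called at the low dose, 8.98% at the medium dose and 11.9% at the high dose, so 0 of 5, 0 of 5 and 0 of 6 detected members stood beside these shares. Among these detected members 1, 3 and 4 had an unadjusted p under 0.05 by limma and also by an ordinary linear model, which called 0, beside 27.7%, 33.1% and 36.2% of all detected named genes by limma. At the low dose this was Abca3, at the medium dose Pdpn, Scgb1a1 and Sftpc, and at the high dose Abca3, Aqp5, Scgb1a1 and Sftpc.

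**Figure D3:**
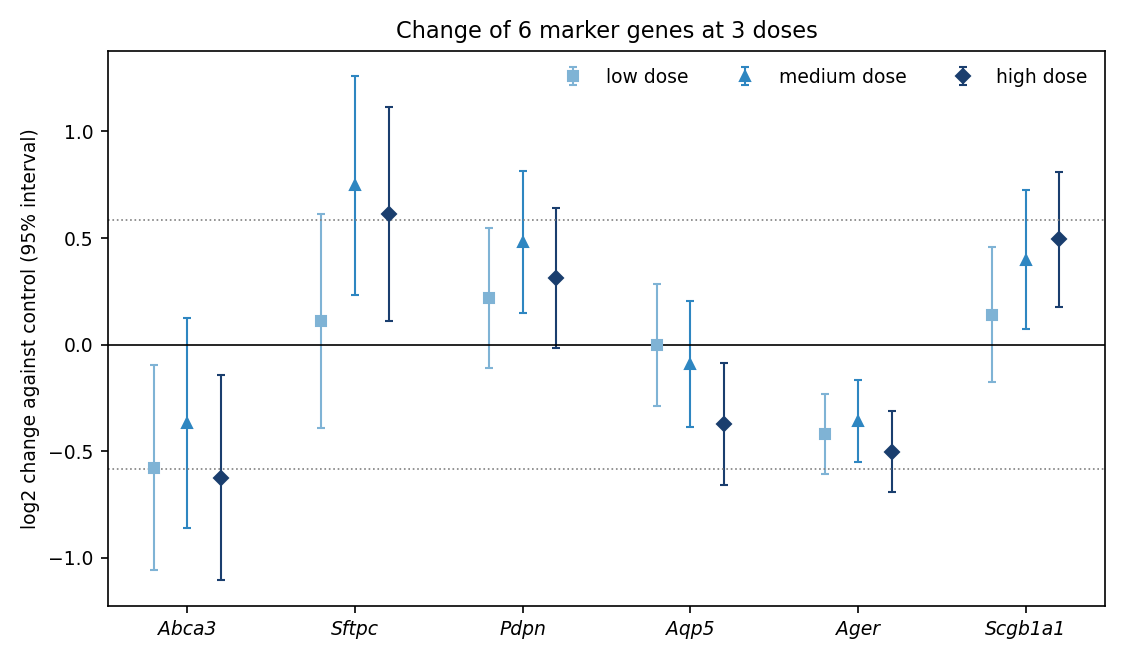
Log2 change of 6 genes against control at each of the 3 doses, with 95% intervals from limma and dotted lines at a change of 1.5-fold in either direction. The estimates for Abca3 and Ager lie below 0 at each dose, those for Pdpn and Scgb1a1 lie above 0 at each dose, and none of the 6 genes was called.

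Abca3 passed the fold threshold at the high dose but not the p threshold. Its log2 change was -0.58 ± 0.23 (SE) at the low dose, -0.37 ± 0.24 at the medium dose and -0.63 ± 0.23 at the high dose, where the level was 1.54-fold under control with an adjusted p of 0.117 and an interval from -1.11 to -0.14. The high dose value was negative within each of the 4 slides that held both groups, from -1.07 to -0.02. Blocking on the replicate number in place of the slide gave -0.71 with an adjusted p of 0.0379, which is a call. Leaving out control array 5 gave -0.78 and an adjusted p of 0.0488, and leaving out low dose array 4, whose ratio was the lowest of all, gave -0.60 and an adjusted p of 0.00283, so both also made it a call. The low dose change was -0.25 without low dose array 4, and the medium dose change was -0.19 without control array 4. Over 44 alternatives the high dose change ran from -0.78 to -0.45 and the adjusted p from 0.00283 to 0.432.

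For Sftpc the log2 change was 0.11 ± 0.24 (SE) at the low dose, 0.75 ± 0.25 at the medium dose and 0.61 ± 0.24 at the high dose. The adjusted p values were 0.903, 0.0913 and 0.152, and the high dose interval ran from 0.11 to 1.11. Without medium dose array 4 the medium dose change was 0.39, and the high dose change stayed at 0.61 with an adjusted p of 0.0111, which is a call. Without control array 4, on which the probe was not detected, the high dose change was 0.37 with an adjusted p of 0.478. In the reference channel the probe was well above background on 1 of 22 arrays, so the ratio rested on a denominator near background. The background-subtracted ratio of the scanner software gave larger changes, 1.78 at the medium dose with an adjusted p of 0.012 and 1.70 at the high dose with an adjusted p of 0.00954, both calls. Over all alternatives the high dose adjusted p ran from 0.00954 to 0.478.

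Scgb1a1 gave log2 changes of 0.14 ± 0.15, 0.40 ± 0.16 and 0.49 ± 0.15 (SE) from low to high dose. The high dose value, 1.41-fold over control, had an adjusted p of 0.0502 and stayed under 1.5-fold with an interval from 0.18 to 0.81. It was positive within each of 4 slides, from 0.33 to 0.78, and its adjusted p ran from 0.00581 to 0.638 over 44 alternatives. The medium dose value was 0.20 without medium dose array 4. The low dose value was 0.23 without control array 1, 0.04 without control array 4 and 0.22 without low dose array 4.

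For Pdpn the changes were 0.22 ± 0.16, 0.48 ± 0.16 and 0.31 ± 0.16 (SE), and the adjusted p was lowest at the medium dose, 0.0969, where the interval ran from 0.15 to 0.82. The low dose change was 0.11 without control array 5, 0.14 without low dose array 1 and 0.37 without low dose array 4, and the high dose change was 0.20 without control array 5 and 0.18 without high dose array 6. Its second probe gave 0.42, 0.38 and 0.21 with adjusted p values of 0.321, 0.386 and 0.694. For Aqp5 the changes were 0.00 ± 0.14, -0.09 ± 0.14 and -0.37 ± 0.14 (SE), with an adjusted p of 0.119 at the high dose and an interval from -0.66 to -0.09. The second Aqp5 probe gave -0.09 there with an interval from -0.41 to 0.24. At the high dose the brighter probe was negative within each of 4 slides.

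Ager was the one member with an adjusted p under 0.05, at every dose. The fitted log2 change was -0.42 ± 0.09, -0.36 ± 0.09 and -0.50 ± 0.09 (SE), with adjusted p values of 0.00968, 0.0229 and 0.000817, and it was negative within each of the 4 slides at each dose. Over the alternatives the adjusted p ran up to 0.297 at the low dose and 0.224 at the medium dose, so it was not under 0.05 in each of them, and from 0.000389 to 0.033 at the high dose. It was not called, because these changes were under 1.5-fold and its signal passed the detection level on only 3 arrays per group. The background-subtracted scanner ratio gave larger changes, -1.13, -1.26 and -1.48, with adjusted p values of 0.0763, 0.0356 and 0.00793, and the gene again missed detection. No dosed array was well above background, so each was given its lowest signal well above background, or the probe's own where higher. The control mean was 1.21-fold, 1.13-fold and 1.17-fold over this level for the low, medium and high dose, with no slide term. Only 2 of 5 control arrays measured the gene well above background. The control mean thus lay near background itself, and these values are not firm lower bounds.

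Between doses no member was called either. Over all detected named genes 0% were called for medium against low dose, 0% for high against medium dose and 0.456% for high against low dose. Of the 6 detected members limma gave 1, 0 and 3 an unadjusted p under 0.05, and the ordinary linear model gave 1, 0 and 2. Over all detected named genes limma gave 8.75%, 5.49% and 15%. The ordinary linear model also called 0 members. The high dose exceeded the low dose by 0.35 ± 0.14 (SE) for Scgb1a1 and 0.50 ± 0.22 for Sftpc on the log2 scale, with adjusted p values of 0.47 and 0.552. For Abca3 this difference was -0.05 with an interval from -0.50 to 0.40. For Pdpn it was 0.09 with an interval from -0.21 to 0.40. All comparisons with control share the same 5 control arrays.

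Wider lists of 156 genes around the members were read from the same fit, and 153 of them were on the array. Of the detected genes of these lists 15 of 107 were called at the low dose, 25 of 112 at the medium dose and 30 of 112 at the high dose, 10 of them higher and 20 lower. At the high dose that is 26.8%, beside 5.47% called higher and 6.44% called lower over all detected named genes, for lists picked with results of these arrays known. With arrays centred on their median in place of loess, 7, 8 and 21 genes were called, 0 of 7, 1 of 8 and 5 of 21 of them higher. Calls over all detected named genes shifted the same way, with 16%, 37.1% and 31.1% of them higher from low to high dose, against 41.9%, 47.8% and 45.9% with loess.

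Among 19 genes of type II cells and surfactant metabolism, 13 were detected and 2 called at the high dose, with a list median of 0.00. Lamp3, which encodes a membrane protein of lamellar bodies and lysosomes, rose by 0.90 ± 0.17 (SE) with an adjusted p of 0.00167. Its ratios ran from -0.04 to 0.74 in controls and from 0.72 to 1.48 at the high dose, an overlap due to control array 1. The call was lost with median centring, at 0.86. Chpt1, which encodes the enzyme of the last step of phosphatidylcholine synthesis, fell by 0.75 on the log2 scale with an adjusted p of 0.000193, though a second, also detected Chpt1 probe gave -0.15 with an adjusted p of 0.709. In controls 10 of the 19 genes were detected on at least 4 of 5 arrays, beside 58.8% of all named genes. Fabp5 and Lamp3 led them in signal over the detection level, while Slc34a2 and Egfl6, both marks of type II cells, were detected on 0 control arrays.

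Type I cell genes held the largest fall of the lung epithelial lists. Hopx, which encodes a homeodomain protein without DNA binding and marks type I cells, fell at each dose, by 1.33, 1.59 and 2.08 on the log2 scale, with adjusted p values of 3.48e-05, 3.27e-06 and 4.05e-08. Its control ratios lay between 1.83 and 2.70, its high dose ratios between -0.11 and 0.61, and its second probe gave -2.19 at the high dose. It was also lower at the high than at the low dose, by -0.75 ± 0.15 (SE) with an adjusted p of 0.0313. Of 13 detected type I genes 5 were called at the high dose. Gprc5a, an orphan receptor gene induced by retinoic acid, rose by 1.02 and the keratin gene Krt7 fell by 0.85, with adjusted p values of 6.65e-05 and 4.92e-05. Limch1, an actomyosin regulator gene, fell by 0.68 with an adjusted p of 0.0224. It was well above background on 3 of 5 control and 0 of 6 high dose arrays, and its other probe was not detected. The call was lost in 17 of 44 alternatives. These included detection by the scanner mark, the scanner ratio, the authors' series matrix, no slide term and the ordinary linear model. It was also lost without control array 3 (-0.62), control array 4 (-0.48), high dose array 1 (-0.63) or high dose array 3 (-0.60). The adjusted p of Limch1 ran from 0.00385 to 0.603 over the alternatives. The list median at the high dose was -0.12.

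Among 19 detected lung epithelial transcription factor genes 8 were called at the high dose, 4 in each direction. The C/EBP genes split. Cebpa rose by 0.92 with an adjusted p of 4.25e-05 and Cebpd fell by 1.33 with an adjusted p of 6.72e-07. In controls Cebpa was detected on 4 of 5 arrays and well above background on 3, while Cebpd was well above background on all 5. Id2, an inhibitor of helix-loop-helix factors that marks the tips of the growing lung, fell by 1.67 with an adjusted p of 3.62e-06. Klf5, a zinc finger factor of epithelia, rose by 1.17 ± 0.29 (SE) with an adjusted p of 0.0129. One control value of Klf5 was missing, and its call was lost without control array 1, at 0.91 with an adjusted p of 0.0656. Over the alternatives its adjusted p ran from 0.000393 to 0.172.

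In the fluid and ion transport list, 2 of 8 detected genes were called at the high dose. Sgk1, a kinase gene that raises sodium channel activity, rose by 0.95, and Atp1b1, the beta subunit gene of the sodium pump, fell by 0.93, with adjusted p values of 0.000243 and 0.00761, and both calls were lost with median centring, at 0.92 and -0.97. The Atp1b1 call was also lost with no slide term (-0.92) and without slide 2 (-0.83). Scnn1b and Scnn1g, 2 subunits of the epithelial sodium channel, were detected on 0 control arrays. Among 12 detected partners of Ager and Pdpn, Cd44, the hyaluronan receptor gene whose product binds podoplanin, was the 1 called, and it rose by 0.73, 0.88 and 0.97 from low to high dose, with an adjusted p of 1.98e-06 at the high dose. Its other 2 detected probes gave 0.51 and 0.58 there, under 1.5-fold. The S100 and HMGB ligand genes S100a4 and Hmgb1 were detected and not called.

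Of 7 further collectin and secretoglobin genes on the array 2 were detected at the high dose. Colec12, a scavenger receptor with a collectin domain, fell by 1.03 with an adjusted p of 0.000169. Colec11 was detected on 3 of 5 control and 5 of 6 high dose arrays and was not called. Mbl1, Mbl2 and Scgb3a1 were detected on 0 control arrays. Of 12 detected genes of club, ciliated, goblet and basal cells, Aldh1a1, a retinaldehyde dehydrogenase gene, fell by 0.91 and Bpifb1, a secreted airway defence gene, fell by 0.70, with adjusted p values of 0.000266 and 0.00317. The Bpifb1 call was lost with the replicate number as the block, at -0.57, and with normexp background correction, at -0.58. The cilia regulator gene Foxj1 and the club cell gene Cyp2f2 were detected on 0 control arrays.

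The mesenchymal list had the largest share of calls. Of 15 detected genes 9 were called at the high dose, 8 of them lower, and the list median was -0.66. Dcn fell by 2.27, Col3a1 by 1.70, Pdgfra by 1.53 and Col1a2 by 1.52 on the log2 scale, with adjusted p values of 0.000116, 2.22e-07, 5.49e-09 and 1.77e-06. Dcn encodes decorin, a collagen-binding proteoglycan, Pdgfra a growth factor receptor of fibroblasts, and the others fibrillar collagen chains. No gene of the general epithelial (0 of 10 detected), immune (0 of 6) or endothelial (0 of 3) lists was called at the high dose by limma or by the ordinary linear model. Over all detected named genes limma called 11.9%. By limma 0 of these list genes had an unadjusted p under 0.05, beside 36.2% of all detected named genes. With so few genes per list, a count of 0 calls says little.

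**Figure D4:**
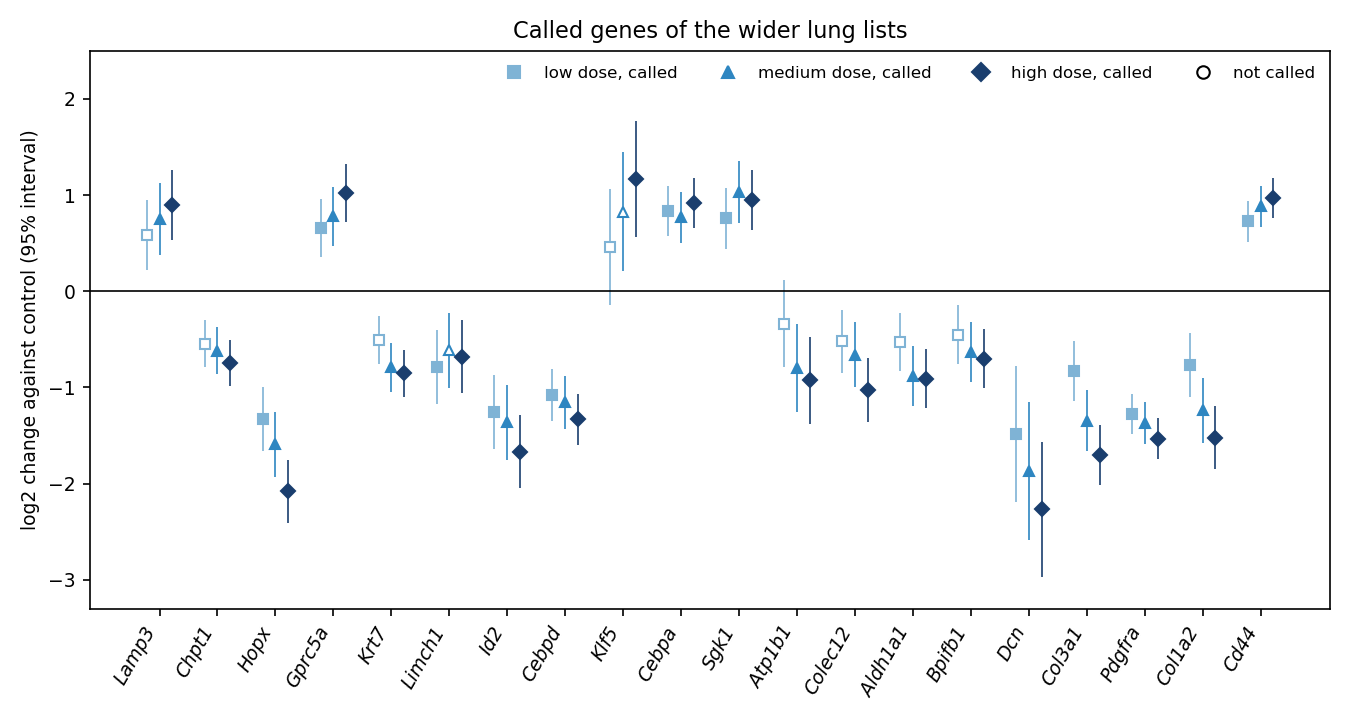
Log2 change against control at each of the 3 doses, with 95% intervals from limma, for the 20 named genes of the wider lists that were called at 1 dose or more, where filled points are called and open points are not. Hopx reaches -2.08 and Dcn -2.27 at the high dose, while Klf5 at 1.17 and Gprc5a at 1.02 are the highest high dose estimates.

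Genes whose pattern over arrays was most like that of a member were taken from 10043 genes detected on at least 4 arrays of every group, by Pearson's r of slide-adjusted ratios over 22 arrays. For Abca3 they were Stat5a (0.90), Prkab2 (0.89) and Pank1 (0.89). For Pdpn they were Fam171a1 (0.93), Uhrf1bp1l (0.92) and Fgd6 (0.91), and for Scgb1a1 they were Crbn (0.80), Mga (0.76) and Mier3 (0.76). Among the 3 members themselves r was 0.22 for Abca3 with Pdpn, -0.17 for Abca3 with Scgb1a1 and 0.44 for Pdpn with Scgb1a1. The points of each pair share their arrays and slides, and these values are descriptions.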

How the data were processed

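FE1 RNA was measured on 22 Agilent two-colour arrays. Per the file headers the authors' scans were read with Feature Extraction 10.7.3.1, and the deposited intensity values are median spot signals per channel. The log10 ratio the scanner software wrote is deposited in the same files and served as an alternative, as did the log2 values of the authors' series matrix, whose normalization and centring are not given in the sources used here, though 22 of 22 columns correlated best with their own array and column medians lay between 0.0043 and 0.0267. Here the log2 of Cy5 over Cy3 median signals was taken without background subtraction. Spots marked as outliers and 3671 control spots per array were left out, loess was run within each array, and spots of a probe were combined by the median. Symbols came from transcript accessions matched to RefSeq, which named 47.4% of 55681 probes. A gene is its brightest probe.

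limma 3.58.1 in R 4.3.3 fitted group and slide, after the methods of the study, whose MAANOVA test was not run. Benjamini-Hochberg adjustment ran over all probes. The procedure was tested on simulated data. Same-numbered arrays of different groups deviated together in 31 of 31 pairs (27 of these on a shared slide, with r from 0.16 to 0.85), so the number was tried as a block. Differently numbered arrays of different groups on a shared slide also did so in 15 of 16 pairs, with a median r of 0.34. The labels do not say what the number stands for. The 10 genes and the wider lists were chosen with earlier results of these data known. Named list genes are the up to 4 called genes with the largest high dose change, or, with fewer than 2 called, the 2 brightest in controls. Alternatives covered normalization, background, marked spots, detection, fold threshold, slide, replicate block, probe choice, an ordinary linear model and left-out arrays. Leaving out control arrays 4 and 5 together was chosen after seeing the data. No 2 arrays correlated above 0.961.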

Additional observations from a re-analysis of the deposited data

Results flagged for a closer look

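In 17 of 104 gene and group combinations of the measured members and the named list genes, 1 array lay farther from the others than Dixon's 95% limit allows, and chance flags about 1 in 20 groups. All values are log2 ratios of FE1 to reference RNA, and what set these arrays apart was not tested.

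Among the members, control array 5 stood low for Abca3 (-1.81, others -1.08 to -0.90) and Pdpn (-0.76, others -0.47 to -0.35). Low dose array 4 stood low for the same genes, at -3.19 for Abca3 (others -1.80 to -1.15) and -1.03 for Pdpn (others -0.28 to 0.13). Medium dose array 4 stood high for Sftpc (2.89, others 0.49 to 0.95) and Scgb1a1 (1.55, others 0.38 to 0.63), and low dose array 3 for Scgb1a1 (0.67, others 0.36 to 0.45).

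Among the list genes, control array 1 stood high for Lamp3 (0.74, others -0.04 to 0.11) and Colec12 (1.18, others 0.43 to 0.57). Medium dose array 1 stood low for Klf5 (-1.29, others -0.16 to 0.21) and Aldh1a1 (3.00, others 3.57 to 3.68) and high for Sgk1 (1.05, others 0.38 to 0.53). Low dose array 6 stood low for Dcn (-3.97, others -1.59 to -1.10) and high for Id2 (-4.23, others -5.32 to -4.94). Low dose array 1 stood low for Chpt1 (-0.57, others -0.32 to -0.19) and Pdgfra (-3.35, others -2.80 to -2.49). High dose array 1 stood high for Atp1b1 (3.73, others 2.09 to 2.70).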

How the results depend on the processing

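Each result was recomputed under 44 alternatives, and 759 of 786 recomputed member changes kept their sign and their side of the call. This count overstates stability, because some settings could not alter it. Scaling of average signal between arrays left the ratios unchanged, and a 2-fold threshold could not add a call. The detection, fold and ordinary linear model settings reused the same changes, so no sign could move. At the high dose 1 member was called with the scanner ratio, with only the 2 groups compared and with the replicate block, and 0 to 1 when single arrays were left out (1 without control array 5, low dose array 4 or medium dose array 4). At the medium dose 1 member was called with the scanner ratio. The Aqp5 low dose change, near 0, changed sign to 0.0874 with the series matrix, 0.0058 with marked spots kept, 0.012 with 2 groups or without slide 5, 0.05003 without slide 1, 0.018 without slide 2 and 0.0597 without low dose array 1 and medium dose array 2, and ran from -0.0915 to 0.117 with single arrays left out. At the medium dose it was 0.0876 with the series matrix and ran from -0.173 to 0.0283 with single arrays left out. The Sftpc low dose change was -0.0575 without control arrays 4 and 5 and ran from -0.13 to 0.25 with single arrays left out. Without slide 1 no medium dose value was had, since 3 arrays per group cannot meet the 4-array rule.

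For the wider lists, the 15 low dose calls became 7 with median centring, 5 at a 2-fold threshold and 23 with none. The 25 medium dose calls became 8 and 9, and the 30 high dose calls 12 at 2-fold. With single arrays left out the counts ran from 13 to 18, 21 to 26 and 27 to 34. The replicate block changed no other member call. Against the reference, median centring gave -2.14 for Abca3, -3.50 for Aqp5 and -1.44 for Pdpn, and the scanner ratio gave -3.45 for Aqp5 and 1.01 for Scgb1a1. Median centring also moved the median change of all genes at the low dose to -0.11. It lowered the calls over all detected named genes there to 50 higher and 263 lower, from 302 and 419. The causes were not tested. Signals at or near the detection level limit Sftpa1, Sftpb, Sftpd, Nkx2-1 and Ager, and Sftpc, Aqp5 and Scgb1a1 in the controls.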
